A study of Rattus norvegicus with 12 samples.

Results

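Thbd, Plvap, Tek and Ace are genes of the lung endothelium, and 5 array probes that the study assigned to them were followed in the lungs of 12 rats. The probes are all those that the part of the study's probe list used here gives for these symbols, 2 for Thbd and 1 each for Plvap, Tek and Ace, out of 51255 probes on the array and 1279 that carry a gene name. Each of the 12 arrays held labelled whole lung RNA of 1 male Wistar rat. The model groups had received 1 mL of a 50 mg/mL silicon dioxide suspension into the trachea, and the control groups 1 mL of saline. The titles give the dose as 50 mg/kg instead, a difference that is not explained in the sources used here. Lungs were taken on day 14 or day 28, which gave 4 groups of 3 rats (silica day 14, saline day 14, silica day 28 and saline day 28). No age was given in the sources used here. The methods describe the rats of day 28 only, of which 3 lungs of a group were picked for the arrays on their histology, and how the rats of day 14 were chosen is not given in the sources used here. The treatment text gives 28 days for all rats, but title and time point of 6 of them give 14 days, and those were followed here.

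Endothelial cells line every vessel of the lung, and the capillary bed of the alveoli makes them a large share of the organ. Thbd encodes thrombomodulin, a surface receptor that binds thrombin and turns it from a clotting enzyme into the activator of protein C, an anticoagulant. Plvap encodes the plasmalemma vesicle associated protein, which builds the thin diaphragms across caveolae and fenestrae. Tek encodes Tie2, the receptor tyrosine kinase for the angiopoietins, which govern the stability of vessels. Ace encodes angiotensin-converting enzyme, which makes angiotensin II and degrades bradykinin, and the lung capillary is its classical site.

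The 4 genes are read by 60-base probes, and the part of each that is printed here lets the measured stretch of the transcript be recognised. The first Thbd probe is shown whole because it holds an open frame that runs to a stop codon at its last 3 bases (in capitals), and of the other probes the first 30 bases are shown in lower case.
Thbd A_64_P033610: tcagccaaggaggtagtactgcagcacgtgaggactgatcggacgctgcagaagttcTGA
Thbd A_43_P15023: tggagtttagctagaacacaagcaaagcct
Plvap A_64_P137784: tctgcttgtagcccttaaagacatcactgg
Tek A_44_P1082389: ttgatgcggtagccacccactgcaatggtt
Ace A_64_P098230: tttgagtggaacatacccaagctgggcctt
The study's list places Thbd on chromosome 3, Plvap on chromosome 16, Tek on chromosome 5 and Ace on chromosome 10, so the genes do not neighbour each other. The genome build of that list is not given in the sources used here, and no position within the chromosome is printed. The 2 Thbd probes differ in sequence.

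The start regions of Ace and Plvap are shown because, of the 4 genes, these 2 were matched in the promoter table used here. RefSeq on GRCr8 gives the 300 bases from 250 before the gene start, at chr10:91409879-91410178 on the plus strand for Ace and chr16:18231230-18231529 on the minus strand for Plvap. Capitals mark GGAA or its reverse complement TTCC, the core letters of the ETS family of transcription factors, to which the endothelial factor Erg belongs.
Ace: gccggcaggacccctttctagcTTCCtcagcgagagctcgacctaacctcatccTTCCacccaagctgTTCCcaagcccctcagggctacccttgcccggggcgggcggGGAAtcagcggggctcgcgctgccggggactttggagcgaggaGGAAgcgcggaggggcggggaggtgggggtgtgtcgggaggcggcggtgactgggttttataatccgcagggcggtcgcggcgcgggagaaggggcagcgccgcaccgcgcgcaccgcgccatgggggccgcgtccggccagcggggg
Plvap: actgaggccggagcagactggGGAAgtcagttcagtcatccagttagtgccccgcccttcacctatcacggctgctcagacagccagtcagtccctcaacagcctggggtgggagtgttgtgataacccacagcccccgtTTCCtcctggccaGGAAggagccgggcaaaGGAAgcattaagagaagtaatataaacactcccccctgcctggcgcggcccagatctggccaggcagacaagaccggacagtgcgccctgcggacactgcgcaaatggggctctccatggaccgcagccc
These letters stood 5 times in the Ace window and 4 times in that of Plvap, and 95.8% of the 33469 rat promoters of the same length hold them at least once (median 3 times). The GC box GGGCGG, read on both strands, stood 4 times for Ace and 1 time for Plvap, and 33.1% of promoters hold it. TATAA, on either strand, was counted 2 times for Ace and 1 time for Plvap, with 26.2% of promoters holding it. The 2 counts of Ace come from 1 stretch, ttataa, in which the readings of both strands overlap. The windows held 72.3% and 61% G and C, against a median of 51.7% over all promoters. A match of letters is a description of the sequence only, and the start regions of Thbd and Tek are not shown.

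Each of the 5 probes passed the scanner software's test of being well above background in all 12 rats, and no spot was saturated. On single arrays 60.5% to 69.5% of all probes passed it, with the 3 silica arrays of day 28 the lowest (60.5% to 61.1%). The 12 arrays lay on 2 slides. Slide 1 held the 3 silica rats of day 28 and saline rat 1 of day 28, and all 6 arrays of day 14 lay on slide 2 with the remaining saline arrays. Levels below are quantile-normalized log2 signals, on which a difference of 1 is a change of 2-fold, and they compare rats for the same probe, not one probe with another. Replicates are single rats, so the spread between them is biological and technical together.

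Silica against saline on day 14 is the comparison that was tested, because the study listed its probes from the day 28 arrays and the day 14 rats had no part in that choice. All 5 probes were lower in the silica rats, by 2.52-fold to 4.17-fold, and in each of them every silica rat lay below every saline rat. Plvap showed the largest difference. The 4 genes themselves were chosen here with earlier results of these data known. Across the array, 2.77% of the 34097 probes tested were called lower on day 14, where called means a limma adjusted p up to 0.05 together with a change of 2-fold or more. The fit takes the spread of a probe from all 12 arrays, those of day 28 included. Fitted on the 6 arrays of day 14 alone, all 5 probes stayed called, with limma adjusted p from 0.0242 to 0.0417. A complete separation with the silica rats below was seen for 18.7% of all tested probes, and among the 1278 tested probes with a gene name 21.1% were called lower, since the study had picked the named probes for a difference on day 28.

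The first Thbd probe, A_64_P033610, read 10.85, 10.78 and 10.97 in saline rats 1, 2 and 3 of day 14 and 8.77, 10.03 and 9.79 in the silica rats. The saline rats stayed within 0.19 of each other, whereas silica rat 1 lay far below the other silica rats. The group means were 10.87 ± 0.09 and 9.53 ± 0.67 (SD, n = 3 each), a difference of -1.34 (SE 0.35, limma adjusted p = 0.0279) or a signal 2.52-fold lower.

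The second Thbd probe, A_43_P15023, read 9.36, 9.19 and 9.56 in the saline rats of day 14 and 7.04, 8.10 and 8.11 in the silica rats. Silica rats 2 and 3 were nearly equal and silica rat 1 was again the lowest. Means were 9.37 ± 0.18 and 7.75 ± 0.62 (SD, n = 3 each), which is -1.62 on the log2 scale (SE 0.32, limma adjusted p = 0.00916) or 3.07-fold lower. Both probes of the thrombomodulin gene were thus lower on day 14, and the 95% intervals of their fold changes, 1.48 to 4.31 and 1.88 to 5.02, overlapped widely.

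Plvap, through probe A_64_P137784, read 11.47, 11.26 and 11.82 in the saline rats of day 14 and 8.43, 9.98 and 9.96 in the silica rats. The gap between the lowest saline rat and the highest silica rat was 1.28, the widest among the 5 probes on day 14. Means were 11.51 ± 0.28 and 9.46 ± 0.89 (SD, n = 3 each), a difference of -2.06 (SE 0.42, limma adjusted p = 0.0101). Plvap signal in the silica lungs was 4.17-fold lower (95% interval 2.20 to 7.89), and 63 of the tested probes (0.185%), Plvap included, had a difference this low or lower.

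Tek, through probe A_44_P1082389, read 9.94, 9.91 and 9.89 in the saline rats of day 14 and 7.61, 8.86 and 8.93 in the silica rats. The 3 saline rats were almost the same, with a range of 0.05, and the 3 silica rats spanned 1.32. Means were 9.91 ± 0.03 and 8.46 ± 0.74 (SD, n = 3 each), a difference of -1.45 (SE 0.33, limma adjusted p = 0.0157) or 2.73-fold lower for the Tie2 receptor (95% interval 1.65 to 4.52).

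Ace, through probe A_64_P098230, read 13.15, 12.99 and 13.20 in the saline rats of day 14 and 10.95, 12.23 and 11.77 in the silica rats. Silica rat 1 was again the lowest, and silica rat 2 was the highest. Means were 13.11 ± 0.11 and 11.65 ± 0.64 (SD, n = 3 each), a difference of -1.46 (SE 0.34, limma adjusted p = 0.0180). The signal of the angiotensin-converting enzyme gene was 2.75-fold lower (95% interval 1.63 to 4.66).

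Leaving out 1 rat of day 14 kept all 5 differences below 0, but not all calls. Without silica rat 1, the differences were -0.95 for the first Thbd probe and -1.10 for Ace (limma adjusted p = 0.0910 and 0.0614), and 3 of the 5 probes stayed called. Without saline rat 1 or without saline rat 3, 2 of the 5 did, Plvap and the second Thbd probe, with Tek at an adjusted p of 0.0504 and 0.0517, Ace at 0.0564 and 0.0640, and the first Thbd probe at 0.0737 and 0.0869. Without saline rat 2 the first Thbd probe alone was lost (adjusted p = 0.0671).

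**Figure D1:**
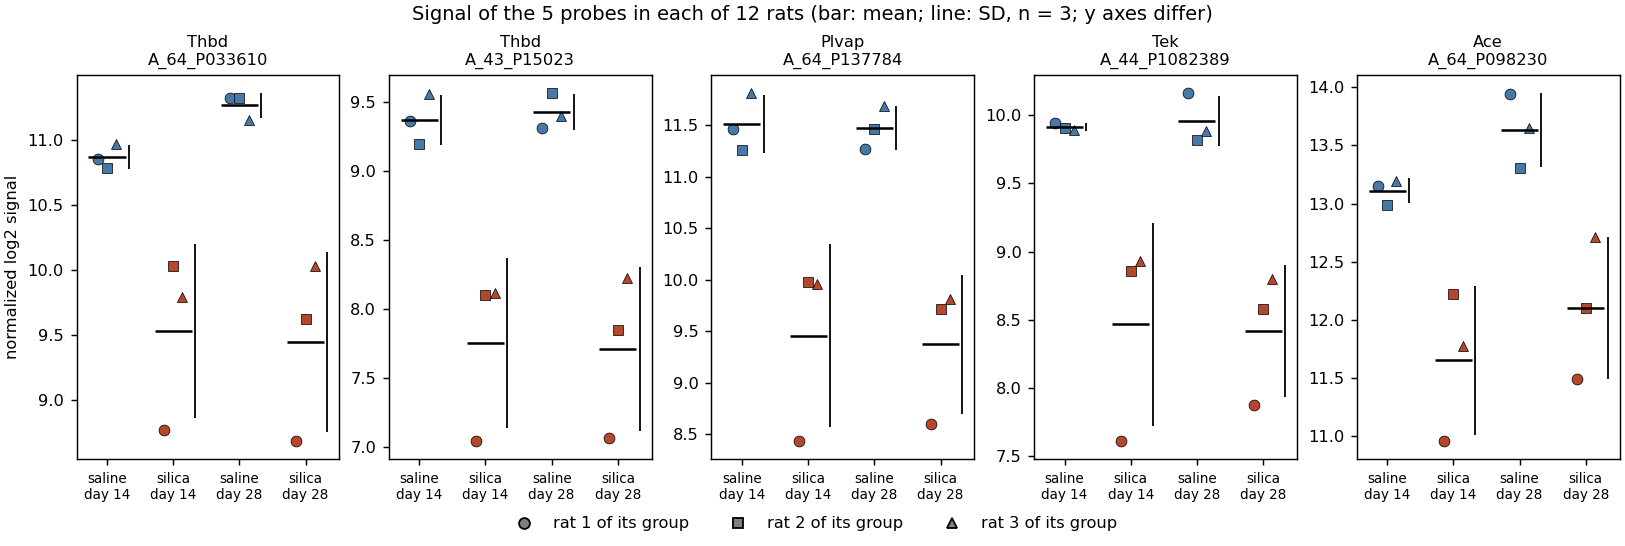
Normalized log2 signal (y axis, a separate scale for each panel) of the 5 probes in the 12 rats by group (x axis). Points are rats (circle, square and triangle for rats 1, 2 and 3), bars are group means and vertical lines the SD of 3 rats. In every panel the silica rats lie below the saline rats of the same day, and silica rat 1 is the lowest point on both days.

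On day 28 the same 5 probes were again lower in silica lungs, by 2.89-fold to 4.28-fold. The probes had been listed by the study for a difference between these same 6 arrays, so the values of day 28 are a description and carry no p. At the threshold used for day 14, 5% of all tested probes were called lower on day 28, and 45.3% of the named ones. All silica rats lay below all saline rats in 23.4% of the tested probes on that day.

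The first Thbd probe, A_64_P033610, read 11.32, 11.32 and 11.15 in the saline rats of day 28 and 8.68, 9.62 and 10.03 in the silica rats, a difference of -1.82 (SE 0.35). The second, A_43_P15023, read 9.31, 9.56 and 9.40 against 7.06, 7.85 and 8.22, a difference of -1.71 (SE 0.32). In both probes silica rat 1 was the lowest and silica rat 3 the highest of the silica group, and the groups did not overlap.

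Plvap (A_64_P137784) read 11.27, 11.46 and 11.69 in the saline rats of day 28 and 8.60, 9.72 and 9.81 in the silica rats, a difference of -2.10 (SE 0.42) or 4.28-fold. It was the largest of the 5 on this day too. Tek (A_44_P1082389) read 10.16, 9.82 and 9.89 against 7.87, 8.58 and 8.80, a difference of -1.54 (SE 0.33). Ace (A_64_P098230) read 13.94, 13.30 and 13.65 against 11.49, 12.10 and 12.71, a difference of -1.53 (SE 0.34), and its lowest saline rat and highest silica rat were 0.59 apart, the narrowest gap of the 5 probes on day 28.

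Slide and group overlap on day 28, where 1 saline array shares the slide of the silica arrays. Set against that array alone, the 3 silica rats were lower by -1.88 and -1.60 (log2) for the 2 Thbd probes, -1.89 for Plvap, -1.75 for Tek and -1.84 for Ace. These values equal those of the fit with slide as a block, in which the day 28 difference rests on that single saline rat.

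The differences of the 2 days lay close together for 4 of the 5 probes. The day 28 difference minus the day 14 difference was -0.04 for Plvap (95% interval -1.34 to 1.26), -0.09 for Tek (-1.12 to 0.93), -0.07 for Ace (-1.14 to 1.00) and -0.09 for the second Thbd probe (-1.09 to 0.91). For the first Thbd probe it was -0.49 (-1.58 to 0.61), and 0.40 of that lay between the saline groups (11.26 on day 28 against 10.87 on day 14) while the silica means were 9.44 and 9.53. Each of these intervals includes 0 and reaches past -1 on the low side, so with 3 rats a group a further fall of 2-fold or a partial return would both lie within the error.

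**Figure D2:**
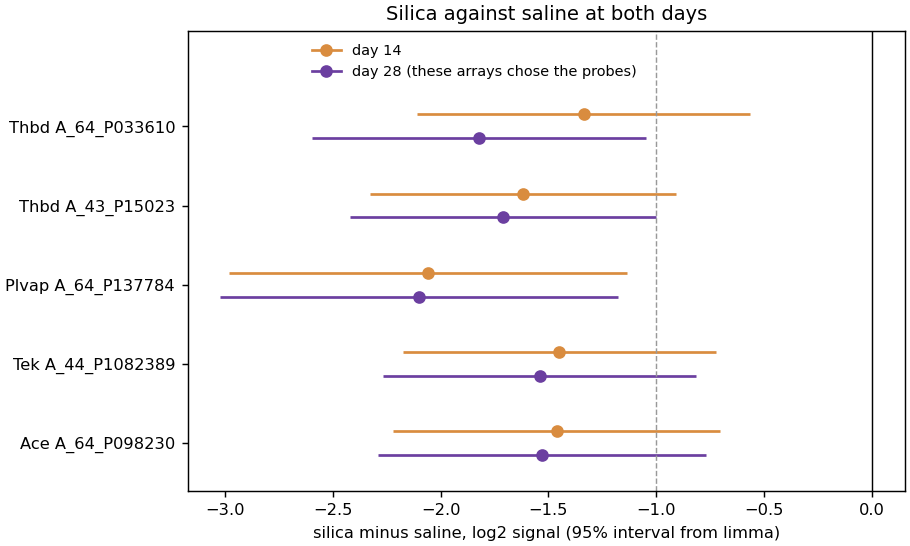
Silica minus saline difference in log2 signal (x axis, 0 means no difference, the dashed line marks 2-fold lower) for the 5 probes (y axis) on day 14 and day 28. Points are the limma estimates and lines their 95% intervals, with 3 rats a group. Plvap is at -2.06 and -2.10, and the intervals of the 2 days overlap for every probe.

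The saline groups give the level of these genes without silica. Ace stood at 13.63 ± 0.32 on day 28 and 13.11 ± 0.11 on day 14 (SD, n = 3 each), a difference of 0.52 (95% interval -0.24 to 1.28), with all 3 day 28 rats above the 3 day 14 rats. The first Thbd probe was likewise separated by day, as given above (0.40, 95% interval -0.38 to 1.17). For Plvap, Tek and the second Thbd probe the saline days differed by -0.04, 0.04 and 0.05, and their rats overlapped. Ordered by mean signal, the groups ran saline day 28, saline day 14, silica day 14 and silica day 28 for both Thbd probes and for Tek. For Plvap the saline groups changed places and for Ace the silica groups did. The 95% interval of the difference between neighbours of the same treatment included 0 in all 5 probes.

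The silica rats differed more among themselves than the saline rats did. The range of the 3 silica rats was 1.08 to 1.55 on day 14 and 0.93 to 1.35 on day 28, on the log2 scale, over the 5 probes. In the saline groups it was 0.05 to 0.56 and 0.17 to 0.64. The limma fit used 1 spread for all 4 groups, so its standard errors and p values make no allowance for this difference. On day 14 silica rat 1 was the lowest of its group in 5 of 5 probes, and the silica rat numbered 1 of day 28, another animal, was the lowest in 5 of 5 as well. Over all tested probes silica rat 1 was the lowest of its group in 34.0% on day 14 and 35.7% on day 28. The order was not particular to the 4 genes, since silica rat 1 was also the lowest in 24 of 24 other endothelial genes, given below, on both days. Below the mean of the saline rats of its day, silica rat 1 of day 14 lay by -3.08 for Plvap, -2.31 for Tek, -2.16 for Ace and -2.10 and -2.33 for the Thbd probes. Silica rats 2 and 3 lay by -0.84 to -1.56.

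The 5 probes varied together across rats. Over the 12 arrays Pearson's r of a pair of probes was 0.918 to 0.993 in the 10 pairs, and after subtracting the group means it was 0.817 to 0.971. These correlations are descriptions over 12 arrays that share the same RNA preparations, so that anything that alters a whole lung sample moves all 5 points.

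Other genes of endothelial cells were lower beside them. Of a list of 53 such genes without the 4 described so far, 24 had a named probe, all 24 were measured above background in all 12 rats, and 16 were called lower on day 14, with 0 higher, where 2.77% of all tested probes and 21.1% of the named ones were called lower. The adjusted p was at most 0.05 and the difference below 0 for 22 of 24, which held for 8.24% of all tested probes. In all 24 every silica rat lay below every saline rat, as in 18.7% of all tested probes. Their median difference was -1.32, against -0.01 over all tested probes and 0.37 over all 1098 named genes tested. Each of the 24 probes had been picked by the study on day 28, so the count is not independent evidence of direction. The share of 21.1% covers named probes that were higher on day 28 as well as lower ones, so it is not a like background for the 24. The genes of the list without a named probe were not analysed here. On day 28, as a description, 23 of the 24 passed the same thresholds and the median was -1.48. Called lower on that day were 5% of all tested probes and 45.3% of the named ones.

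The 8 called genes with the largest differences on day 14 included markers of lymphatic and of capillary endothelium. Lyve1, the hyaluronan receptor that marks lymphatic endothelium and some macrophages, went from 10.82 ± 0.21 to 9.04 ± 0.58 (SD, n = 3 each), a difference of -1.78 (SE 0.25, limma adjusted p = 0.00192). Car4, a membrane carbonic anhydrase of alveolar capillaries, was lower by -1.76 (SE 0.38, limma adjusted p = 0.0132). Nostrin, which binds the endothelial nitric oxide synthase, differed by -1.62, Ramp2, the partner of the adrenomedullin receptor, by -1.54, and Npr3, the natriuretic peptide clearance receptor, by -1.53. Clec14a, an endothelial surface lectin, was 2.83-fold lower, the tetraspanin Tspan7 2.69-fold and Hpgd, which inactivates prostaglandins, 2.67-fold. The limma adjusted p of these 6 lay between 0.00397 (Hpgd) and 0.0304 (Nostrin).

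The remaining 8 called genes were Apln, Icam2, Ptprb, Prx, Ednrb, Cdh5, Sox18 and Efnb2, from -1.36 to -1.09. Cdh5, the cadherin of endothelial junctions, went from 13.89 ± 0.23 to 12.76 ± 0.39 (SD, n = 3 each), or 2.19-fold lower. Of the 8 genes that were not called, 6 had an adjusted p under the threshold with a fold change under 2, namely Erg, Notch4, Esam, Egfl7, Flt1 and Hey1 (-0.99 to -0.82). Slc6a4, the serotonin transporter, stood at -1.63 with a wide error (SE 0.52, limma adjusted p = 0.0601). Vwf, which encodes von Willebrand factor, stood at -1.07 (limma adjusted p = 0.0771), and its other 2 probes at -0.98 and -0.99. Without silica rat 1, or without saline rat 3, of day 14 the count of called genes was 7, and without saline rat 1 it was 10.

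**Figure D3:**
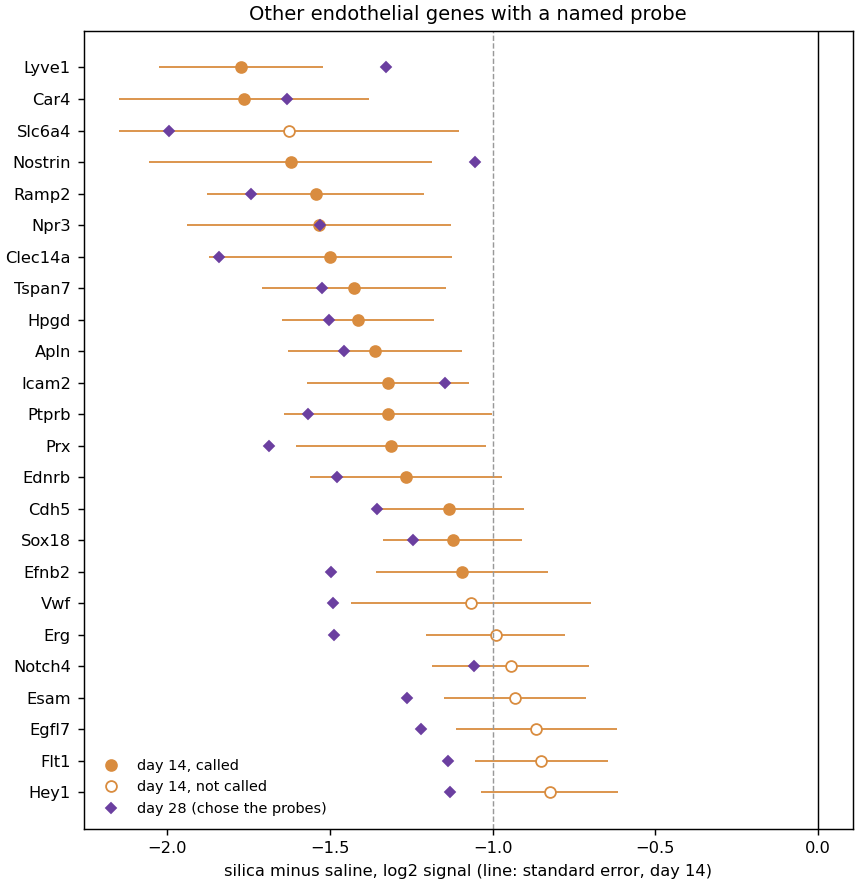
Silica minus saline difference in log2 signal (x axis) for the 24 other endothelial genes with a named probe (y axis). Circles are day 14 with the standard error as a line, filled where the gene was called, and diamonds are day 28. All 24 lie below 0 on both days, and 16 circles are filled.

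Around each of the 4 genes, the named genes of its pathway were read from lists. Of 14 genes of the angiopoietin and Tie2 pathway, 3 had a named probe, of which 1 was called lower and 1 higher, where 21.1% and 26.8% of all named probes were. Ptprb, the endothelial phosphatase that removes phosphate from Tie2, fell from 9.25 ± 0.18 to 7.93 ± 0.62 (SD, n = 3 each), a difference of -1.32 (SE 0.32, limma adjusted p = 0.0204). Angpt1, the activating ligand of Tie2, stood at -0.76 (limma adjusted p = 0.0307), which is under 2-fold. Dok2, a docking protein that binds Tie2 and is also made by blood cells, rose by 1.08 (limma adjusted p = 0.0224). On day 28 the differences of Ptprb, Angpt1 and Dok2 were -1.57, -1.06 and 2.26.

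Of 22 genes of the protein C system and of clotting at the vessel wall, 6 had a named probe, of which 1 was called lower and 2 higher on day 14 (median 0.13). Among all named probes 21.1% were called lower and 26.8% higher, so these counts are near the share of the named probes. Tfpi, the endothelial inhibitor of the tissue factor pathway, fell by 1.23 (SE 0.22, limma adjusted p = 0.00512). Plau, the urokinase that activates plasminogen, was 2.15-fold higher (limma adjusted p = 0.00553) and its receptor Plaur 2.33-fold higher (limma adjusted p = 0.00332). On day 28 the log2 differences were -1.07 for Tfpi, 1.30 for Plau and 1.44 for Plaur. The thrombin receptor F2r stood at -0.72, under 2-fold, and the fibrinogen chain Fgg at 0.98 (limma adjusted p = 0.0517).

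Caveolae are the membrane pits whose necks the Plvap protein spans. Of 14 genes for their coat, 5 had a named probe, 2 were called lower and 0 higher, with a median of -1.08. The shares called lower were 2.77% of all tested probes and 21.1% of the named ones. Cav1, the main coat protein, went from 12.20 ± 0.18 to 10.66 ± 0.67 (SD, n = 3 each), a difference of -1.54 (SE 0.33, limma adjusted p = 0.0118), and its partner Cav2 fell by 1.33 (limma adjusted p = 0.0150). The cavin genes Ptrf and Sdpr and the membrane ATPase gene Ehd2 stood at -0.89, -1.08 and -0.88, with an adjusted p of 0.00397, 0.0778 and 0.00990. All 5 were lower on day 28, where Cav1 differed by -1.92 and the median was -1.71. Cav1 and the cavins are also made by alveolar type 1 cells, fibroblasts and fat cells. Of 17 genes of the renin-angiotensin and kinin system, in which Ace acts, 0 had a named probe.

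Whole lung RNA mixes all cell types. In it fewer cells of a type, less RNA per cell and more RNA from other cells cannot be told apart. The summed linear signal of 8 endothelial markers with a named probe, of 12 in the list, was 26180 to 32350 in the saline rats of day 14 and 9387 to 17929 in the silica rats, and 35929 to 41019 against 10199 to 18223 on day 28. In such sums, here and below, the brightest probes weigh most, as Cdh5 does among the 8. The 8 markers are among the 24 endothelial genes given above, with the same probes, so their sum is not separate evidence. The study had listed all these probes for a difference on day 28. All 8 were above background in all 12 rats, so endothelial RNA was measured in every lung.

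Markers of macrophages went in the opposite direction to the 4 genes. Of 9 macrophage markers 5 had a named probe, and all 5 were called higher on day 14, where 2.87% of all tested probes and 26.8% of the named ones were. Trem2, a lipid receptor of macrophages, rose by 4.25 on the log2 scale, Gpnmb by 3.97, Cd68 by 2.82, Cd14 by 1.86 and Aif1 by 1.26. The summed signal of the 5 went from 2062 to 3463 in the saline rats up to 17836 to 28200 in the silica rats of day 14, and from 2533 to 3016 up to 28421 to 35239 on day 28. Silica rat 1 had the highest sum on both days (28200 and 35239), and it was the rat with the lowest signal of all 5 probes.

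Of 5 alveolar type 1 markers 2 had a named probe. Rtkn2 was called lower (-1.42, limma adjusted p = 0.0173) and Aqp5 stood at -0.93 (limma adjusted p = 0.0998). Among all tested probes 2.77% were called lower on day 14, and among the named ones 21.1%. The median difference of the 2 type 1 markers was -1.18, beside -1.10 for the 8 endothelial markers. The sum of the 2 was 1900 in silica rat 1 of day 14 and 4437 and 4811 in silica rats 2 and 3, against 6014 to 7998 in the saline rats. On day 28 it was 2282, 3699 and 4564 in the silica rats and 8101 to 9756 in the saline rats. Hbb-b1, a haemoglobin gene of red cells, stood at -1.52 on day 14 (limma adjusted p = 0.119), Cd8a of T cells at 0.45 and Col1a1 of fibroblasts at 0.59, none of them called. Lists for alveolar type 2, club and ciliated cells and neutrophils had 0 named probes. Within day 14, silica rat 1 also had the lowest share of probes well above background of the silica rats (64.6%, against 67.0% and 67.8%). The part of these measures in the fall of the 4 genes was not tested.

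**Figure D4:**
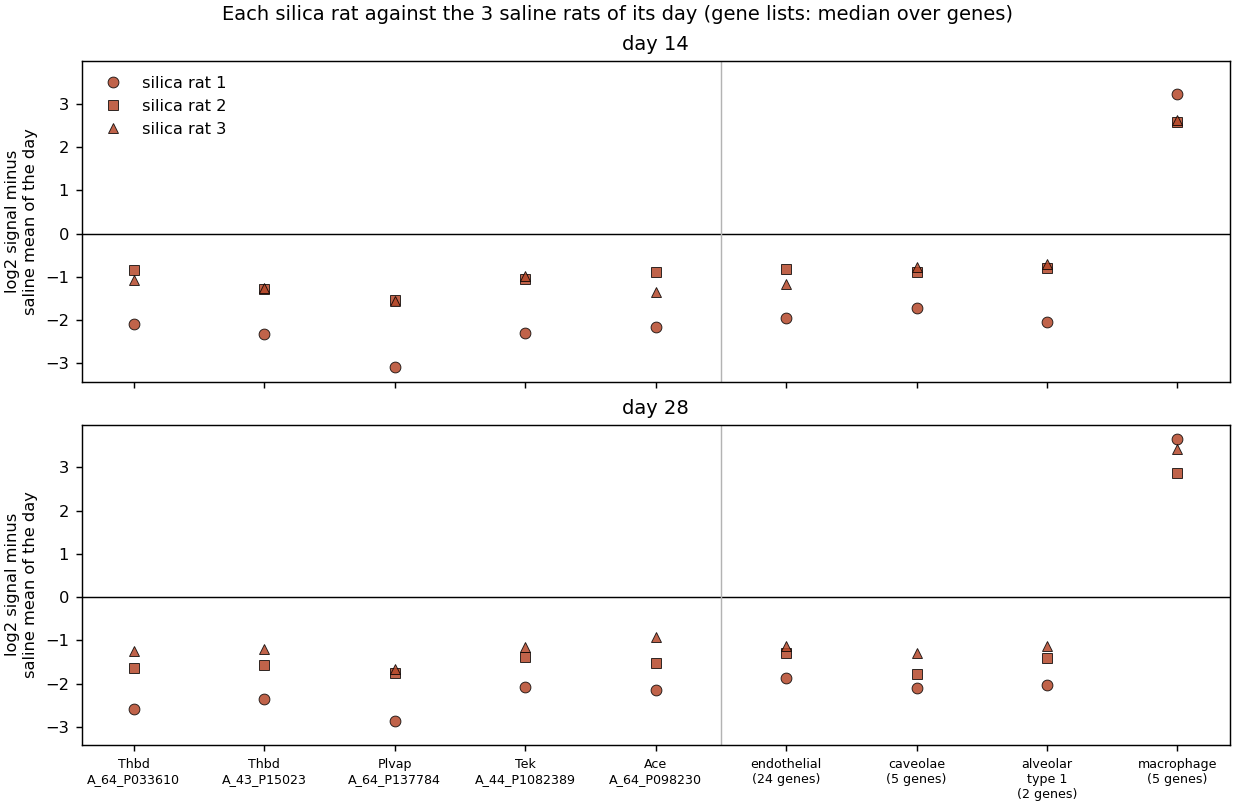
Log2 signal of each silica rat minus the mean of the 3 saline rats of its day (y axis), for the 5 probes and, right of the line, as the median over the genes of 4 lists (x axis). Circle, square and triangle are silica rats 1, 2 and 3 of day 14 (top) and day 28 (bottom). Rat 1 is the lowest in the endothelial probes and lists and the highest in the macrophage list on both days.

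Likeness to the 4 genes was measured over the 967 named probes detected above background in all 12 rats, as Pearson's r with the mean of the standardised signals of the 4 genes. By log2 signal the closest were Ptprb (r = 0.997), Mprip (0.996), Cav2 (0.995), Clec14a (0.995) and Epas1 (0.995). After the group means were taken out, Xpnpep2 (0.994), Mprip (0.990), Clec14a (0.988), Epas1 (0.986) and Vipr1 (0.986) led. The points are 12 arrays that share their RNA preparations, and a high r describes these arrays only. All 967 probes had been listed by the study for a difference on day 28. A silica difference shared with the 4 genes therefore enters r by log2 signal, and the genes given are the highest of the 967. On day 14 Epas1, the oxygen-sensitive factor HIF-2 alpha, differed by -1.33, Vipr1, a receptor for vasoactive intestinal peptide, by -1.81 and Xpnpep2, a membrane aminopeptidase that cleaves bradykinin, by -1.48, all 3 called. Mprip, which binds myosin phosphatase and RhoA, stood at -0.84 (limma adjusted p = 0.0242), under 2-fold.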

How the data were processed

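The authors scanned single-colour (Cy3) Agilent arrays with Feature Extraction 10.7.1.1 and deposited an intensity for each spot, corrected for background and not normalized between arrays. They also deposited a log2 table, quantile normalized in GeneSpring per the methods, which was used as an alternative. Its values correlated with the log2 intensities at 0.998 or more on every array. It held 0 columns of other samples.

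Here control and outlier spots were dropped, spots of a probe averaged, and log2 intensities quantile normalized over 12 arrays. The dim filter asked for detection above background in all 3 rats of any group, which left 34097 of 51255 probes. Group means were fitted with limma 3.58.1 in R 4.3.3, with 8 residual degrees of freedom and Benjamini-Hochberg adjustment over all kept probes. Calls needed an adjusted p up to 0.05 and a change of 2-fold or more. The number of arrays limits the precision.

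Gene names came only from part of the study's probe list (1279 probes, 1099 genes), which holds probes called by the authors on the day 28 arrays. For list genes with more than 1 named probe the brightest one stands. The text names the probes of the 4 genes, the called genes of each list (values for the 8 with the largest change where more were called) or else the 3 with the largest change, and the 5 genes most alike by each measure. The other genes of the short lists and the remaining endothelial genes were named after their values were seen. Members and lists were chosen with earlier results of these data known. Protein values were not used here. Promoters were taken from RefSeq (2 of the 4 genes matched), and RefSeq was otherwise used for names only. Python 3.11.15, numpy 2.4.6, pandas 2.3.3 and matplotlib 3.10.9 were used for tables and plots. Alternatives were another background correction, scaling, filter and set of arrays, the authors' table, the slide or replicate number as a block, and leaving out each rat.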

Additional observations from a re-analysis of the deposited data

How the results depend on the processing

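All 5 probes stayed lower in silica lungs on day 14 and on day 28 under every alternative run. Of the calls of day 14, that of the first Thbd probe (A_64_P033610) was lost when no filter on dim probes was set (-1.34, limma adjusted p = 0.0568), where 51255 probes were adjusted together. Leaving out 1 rat gave day 14 differences of -1.59 to -0.95 for that probe, -1.80 to -1.26 for Thbd A_43_P15023, -2.32 to -1.54 for Plvap, -1.68 to -1.02 for Tek and -1.75 to -1.10 for Ace. Plvap and Thbd A_43_P15023 stayed called in all 6 fits without a rat of day 14, Tek in 4, Ace in 3 and Thbd A_64_P033610 in 2. Over all rats left out in turn, 2 to 5 of the 5 probes and 7 to 23 of the 24 endothelial genes were called lower on day 14 (5 and 16 with all rats).

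Over the whole array, 1924 probes were called on day 14, 946 of them lower. With normexp background correction 734 were called, 285 of them lower (38.8% against 49.2%), while all 5 probes and 17 endothelial genes were called. Leaving out 1 rat gave 1125 to 2590 called and 315 to 1544 called lower. The cause was not tested. Without silica rat 1 of day 14, 315 were called lower, without saline rat 1, 575, without saline rat 3, 473, and without silica rat 2, 1544. The share of lower calls was 28% without silica rat 1 and 59.6% without silica rat 2.

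Within a day, the deviations of the silica rat and the saline rat with the same replicate number correlated at -0.17 to 0.07 over all tested probes. No pairing by number was seen in that measure. It does not compare rats of different days, and it was not taken for the 5 probes alone. With the replicate number as a block the 5 probes stayed called (limma adjusted p = 0.0208, 0.00553, 0.00454, 0.0173 and 0.0237 for Thbd A_64_P033610, Thbd A_43_P15023, Plvap, Tek and Ace), with 1949 probes called. Slide as a block could not change the day 14 differences, since all arrays of day 14 lay on slide 2. The day 28 minus day 14 difference, which had no test, changed sign with slide as a block for the second Thbd probe (0.02) and Plvap (0.17), and with normexp for the second Thbd probe (0.05), Plvap (0.00089) and Ace (0.02). Leaving out 1 rat gave -0.45 to 0.23 for the second Thbd probe, -0.55 to 0.35 for Plvap, -0.52 to 0.18 for Tek and -0.42 to 0.24 for Ace, while the first Thbd probe stayed below 0 (-0.86 to -0.10). All of these lay inside the 95% intervals with all rats.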
